A study of Homo sapiens with 6 samples.

Results

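The genes of the cytosolic ribosomal proteins, which make up the protein part of the 40S and 60S ribosomal subunits, were described in SK-BR-3 cells with and without an siRNA against GRB2. Members were set by a rule on gene names, chosen with earlier results of these data known. They are the protein-coding rows of the count table whose symbol is RPL or RPS followed by a number, or RPSA, RPLP0, RPLP1 or RPLP2, without the RPS6K kinases and without Y-linked genes. The rule gave 83 of the 30327 rows, 32 of the small subunit and 51 of the large subunit, spread over 21 chromosomes. Of these, 77 are the usual (core) genes and 6 are paralogs (RPL3L, RPL7L1, RPL22L1, RPL26L1, RPL39L and RPS27L). All 83 had enough reads to be tested. The paralog RPL10L was not analysed here. FAU, RACK1 and RPL36AL are among 4 listed genes that encode ribosomal proteins too but whose symbols fall outside the rule, and they are given apart.

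A ribosome holds a single copy of nearly every one of these proteins beside the ribosomal RNAs, so cells make the proteins in matched amounts. Their mRNAs are among the most abundant of a growing cell and begin with a C and a run of pyrimidines, the 5′ terminal oligopyrimidine (TOP) tract, through which mTORC1 and LARP1 control their translation. GRB2 is an adaptor protein that links receptor tyrosine kinases such as HER2 to RAS and PI3K signalling. When ribosome assembly fails, free RPL5 and RPL11 with 5S ribosomal RNA bind MDM2, a ubiquitin ligase, and inhibit it.

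SK-BR-3 is an established human breast cancer line with an amplified ERBB2 (HER2) gene. The libraries came from 3 samples given a nontargeting control siRNA (si_NC) and 3 given an siRNA against GRB2 (si_GRB2), with no other agent named in the labels. The descriptions of the treated libraries name si_GRB2, whereas their titles, their genotype label and the series design name overexpression of GRB2. They were grouped by description. Both groups stand for 1 cell line, and the labels do not say which siRNA was used or whether replicates were separate transfections, so p-values measure only the spread between these samples, which may be technical. With 1 treatment, effects of losing GRB2 and other effects of the siRNA cannot be told apart.

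GRB2 (ENSG00000177885.15) was lower in every library labelled si_GRB2. It had 123.9, 129.5 and 126 CPM (reads of the gene relative to the library's total, scaled by TMM, the normalization of edgeR) in si_NC and 27.8, 28.1 and 29.6 CPM in si_GRB2, or −2.15 ± 0.04 (SE) as log2 fold change, with an adjusted p of 3.87e-15 in edgeR. Between 24810378 and 28532480 reads were counted per library. Of 9 listed markers of SK-BR-3, CDH1 had too few reads to be tested. Of the 8 tested (ERBB2, GRB7, STARD3, EPCAM and 4 keratins), 7 were lower and ERBB2 was higher in si_GRB2. Among all genes tested, 15.5% were lower and 15.2% higher. Summed reads per library ran from 422296 to 574674 for the 9 listed markers. They ran from 15 to 39 for 4 leukocyte markers and from 113 to 164 for 4 fibroblast markers. For 3 endothelial markers they ran from 442 to 868, and no marker was at 0 over all libraries. The endothelial sum was lower in si_GRB2 (442 to 587 reads) than in si_NC (753 to 868), and its marker CDH5 passed the 1.5-fold limit (log2 fold change −0.61, adjusted p = 5.56e-06 in edgeR). CDH5 held most of this sum, with a mean of 28.4 CPM in si_NC beside 1.39 CPM for VWF. PECAM1 had too few reads to be tested, so the sum mostly follows the single gene CDH5. The part of other cell types in the results was not tested. In bulk samples, fewer cells of a type and less RNA per cell cannot be told apart.

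The sequences around the transcription start show the tract that most members share. RefSeq windows of GRCh38.p14 were found for 66 of the 83 members (82 start sites). In 52 of the 66 (78.8%), a run of at least 8 C or T on the sense strand overlapped the 5 bases on either side of an annotated start, beside 15.8% of the 10689 tested genes with a window. The members below include members with large falls that had a window, an abundant member, 2 small-subunit members, and paralogs beside their parents. Each sequence holds 40 bases before the start and 30 bases from it, 5′ to 3′ in the sense of the gene, with the longest C or T run next to the start in capitals.
RPL4 (chr15:66504826-66504895, minus strand): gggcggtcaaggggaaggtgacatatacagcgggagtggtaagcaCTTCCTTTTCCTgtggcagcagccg
RPL10A (chr6:35468361-35468430, plus strand): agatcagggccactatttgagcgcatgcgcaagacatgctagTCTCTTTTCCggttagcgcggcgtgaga
RPL29 (chr3:51995866-51995935, minus strand): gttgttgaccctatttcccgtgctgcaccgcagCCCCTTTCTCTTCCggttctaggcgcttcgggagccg
RPL19 (chr17:39200283-39200352, plus strand): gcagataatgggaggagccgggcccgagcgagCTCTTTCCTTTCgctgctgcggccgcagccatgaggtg
RPS3 (chr11:75399478-75399547, plus strand): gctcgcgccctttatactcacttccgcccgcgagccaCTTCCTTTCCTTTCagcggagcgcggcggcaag
RPS6 (chr9:19380207-19380276, minus strand): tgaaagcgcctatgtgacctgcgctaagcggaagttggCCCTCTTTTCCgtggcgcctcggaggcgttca
RPL22 (chr1:6199566-6199635, minus strand): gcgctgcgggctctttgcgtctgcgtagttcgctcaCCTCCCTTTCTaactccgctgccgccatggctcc
RPL22L1 (chr3:170870166-170870235, minus strand): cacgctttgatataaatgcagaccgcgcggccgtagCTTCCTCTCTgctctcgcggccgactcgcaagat
RPL26 (chr17:8383164-8383233, minus strand): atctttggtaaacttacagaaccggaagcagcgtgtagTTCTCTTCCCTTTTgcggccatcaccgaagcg
RPL26L1 (chr5:172958840-172958909, plus strand): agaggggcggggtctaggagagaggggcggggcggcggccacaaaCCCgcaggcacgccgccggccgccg
RPL7L1 (chr6:42879576-42879645, plus strand): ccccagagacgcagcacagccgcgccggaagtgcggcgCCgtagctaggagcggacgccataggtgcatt
RPS27L (chr15:63157448-63157517, minus strand): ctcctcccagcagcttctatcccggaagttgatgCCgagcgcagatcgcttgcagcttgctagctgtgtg
Among the sequences shown, the longest run next to the start was 14 bases in RPL26, RPL29 and RPS3, and 3 bases in RPL26L1. Of the 4 paralogs with a window, RPL22L1 held a tract like that of its parent RPL22. RPL26L1, RPL7L1 and RPS27L held none at the start.

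To ask whether the ribosomal protein mRNAs moved with GRB2, si_GRB2 was compared with si_NC. Most members were a little lower in si_GRB2, and the change was small in each. A member was called when its adjusted p was under 0.05 over all 15801 genes tested, and 60 of the 83 members were called lower, 1 (RPL26L1) was called higher and 22 were not called. Among all genes tested, 30.6% were called, 15.5% lower and 15.2% higher. The median log2 fold change of the members was −0.104, with quartiles of −0.130 and −0.072, beside a median of 0.0019 and quartiles of −0.140 and 0.143 over all genes tested. The median member changed by −6.98%. No member reached a 1.5-fold change, the fold limit in the study's methods. Set here together with an adjusted p under 0.01 (the methods name a p value), this limit was passed by 2.52% of all genes tested. The fitted change was below 0 in 80 members and above 0 in RPL26L1, RPL7L1 and RPS10. In 58 members all si_GRB2 libraries lay below all si_NC libraries, as they did in 21.2% of all genes tested.

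**Figure D1:**
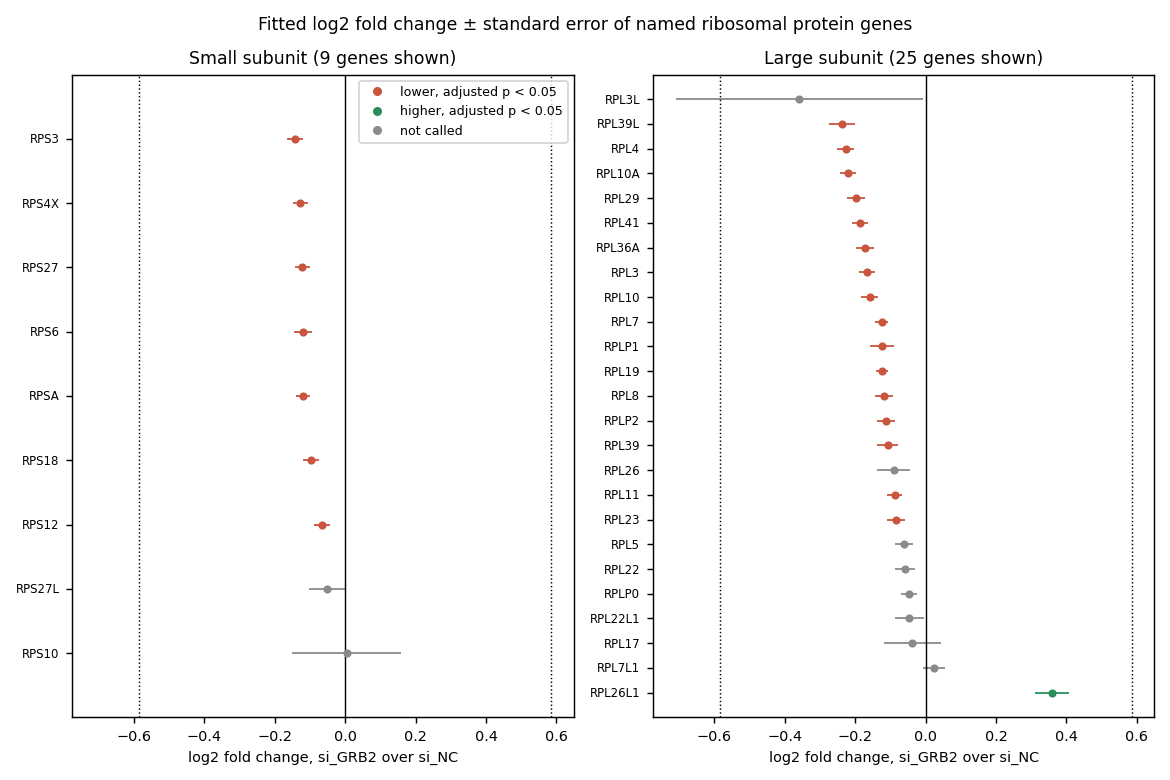
Log2 fold change of si_GRB2 over si_NC (horizontal axis) with its standard error for the members named in the text, by subunit and ordered by value. Dotted lines mark the 1.5-fold limit, and most points lie a little to the left of 0, with RPL39L called lower at −0.24 and RPL26L1 called higher at 0.36. RPL7L1 and RPS10 lie just right of 0 and were not called.

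The members carry many reads, so small differences could be called. Over the 6 libraries, the median member had 150684 reads and 72 members had more than 50000. Of these 72, 59 were called lower (81.9%) and 0 higher. Of the 379 other genes tested with more than 50000 reads, 147 were called lower (38.8%) and 76 higher, with a median log2 fold change of −0.034. The median coefficient of variation of a member between replicates was 1.83% in si_NC and 2.44% in si_GRB2, and the median standard error of the log2 fold change was 0.025. CPM are relative to the other genes of a library, and a change in total mRNA per cell was not measured.

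Fewer members were called lower, and a smaller share of all genes was called, in fits on the deposited FPKM, which were not scaled by TMM. The deposited FPKM are a level per length of exon, scaled by a library total. On log2(FPKM + 1), limma called 2 members lower and 1 higher, with a median of −0.054. That fit called 4.68% of all genes, and 40.4% of those called were lower. With a mean FPKM of at least 1, 7 members were called lower, with a median of −0.057 beside 0.036 over all genes tested. There 24.7% of all genes were called, 36.7% of them lower. After each library was centred on its median ratio, 26 members were called lower, while 9.45% of all genes were called in either direction. The total behind FPKM was 1.177 to 1.268 times the counted reads in si_NC and 1.205 to 1.265 times in si_GRB2. In every one of these fits RPL26L1 was the only member called higher.

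The same small drop was seen in the summed reads. The 83 members took 11.3%, 11.5% and 11.4% of the counted reads in si_NC and 11.1%, 10.7% and 10.9% in si_GRB2. The ranges did not overlap. RPL19 alone held 15.6% of the members' reads, and without it the shares were 9.54%, 9.68% and 9.61% in si_NC and 9.37%, 9.05% and 9.21% in si_GRB2. Against the si_NC mean of each gene, the median member stood at −0.019, 0.017 and 0.0036 on the log2 scale in si_NC and at −0.065, −0.133 and −0.106 in si_GRB2. Replicate 1 of si_GRB2 lay nearest to the controls, and 75 of the 83 members were below the si_NC mean in it, against 82 and 80 in replicates 2 and 3.

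**Figure D2:**
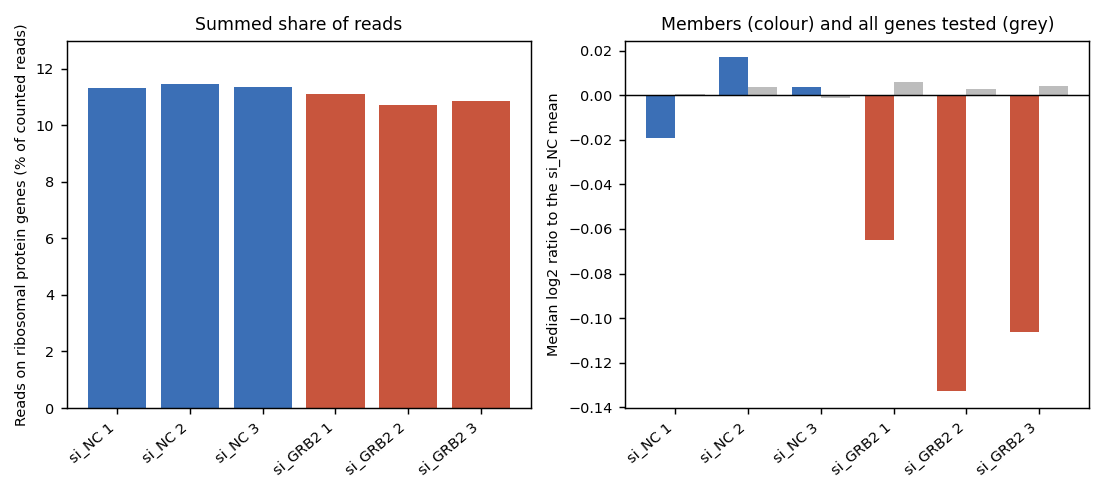
Left, share of counted reads on the 83 members in each library, in percent. Right, median log2 ratio to the si_NC mean per library, for the members in colour and for all genes tested in grey. The members' medians are −0.065 to −0.133 in si_GRB2, while those of all genes tested stay between −0.0011 and 0.0059 in the 6 libraries.

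Levels differed far more between members than between groups. On the deposited FPKM scale, which is per length, the median member had a mean of 243.2 FPKM over the 6 libraries. RPL19 was highest with 3958, 4053 and 4169 FPKM in si_NC and 3807, 3899 and 3821 FPKM in si_GRB2, which is 16.2 times the median member. RPL7 followed with a mean of 2015 FPKM, then RPS12 with 1456, RPS27 with 1430 and RPS18 with 1103. RPS12 and RPS27 overlapped in their ranges over the libraries, while RPL19 and RPL7 did not overlap with each other. FPKM divides by the exons of all transcripts together, and CPM per kilobase of the canonical transcript, a second scale per length, kept RPL19 and RPL7 first and second but placed RPS12 at rank 13. At the low end stood RPL3L, a paralog known from striated muscle, with 68 reads over the 6 libraries and 0.08 to 0.15 FPKM.

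**Figure D3:**
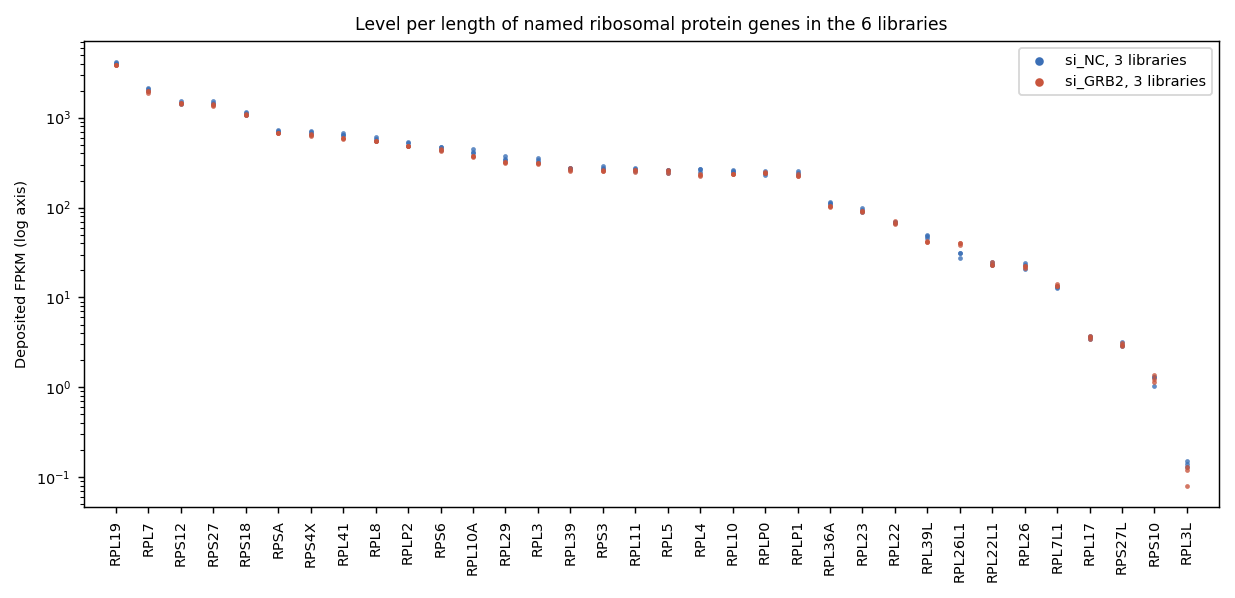
Deposited FPKM (log axis) of the members named in the text in the 3 si_NC and 3 si_GRB2 libraries, ordered by the mean of the 6. Levels run from about 0.12 FPKM for RPL3L to 3951 for RPL19, and the points of both groups lie close together for nearly every gene.

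In the large subunit, 36 of 51 members were called lower and 1 higher, with a median log2 fold change of −0.108. RPL4, which lines the exit tunnel of the nascent chain, had 1778, 1886 and 1816 CPM in si_NC and 1575, 1542 and 1567 CPM in si_GRB2 (log2 fold change −0.23, adjusted p = 2.17e-06). RPL10A, the protein of the L1 stalk, had 788, 790.3 and 800.3 CPM in si_NC and 689.9, 673 and 678 CPM in si_GRB2 (log2 fold change −0.22, adjusted p = 1.89e-06). Neither gene overlapped between the groups. RPL29 fell by 12.8% and RPL41, one of the shortest proteins known, fell by 12.1%. RPL3, which lies close to the peptidyl transferase centre, had 1952, 2024 and 1984 CPM in si_NC and 1804, 1753 and 1756 CPM in si_GRB2 (log2 fold change −0.17, adjusted p = 2.45e-05). RPL8, another protein near that centre, changed by −0.12 in log2 (adjusted p = 0.00241, edgeR), as did RPL7 (adjusted p = 9.94e-05, edgeR). RPL4 shares exonic bases with ZWILCH on the opposite strand, whose row had 2.54% as many reads.

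**Figure D4:**
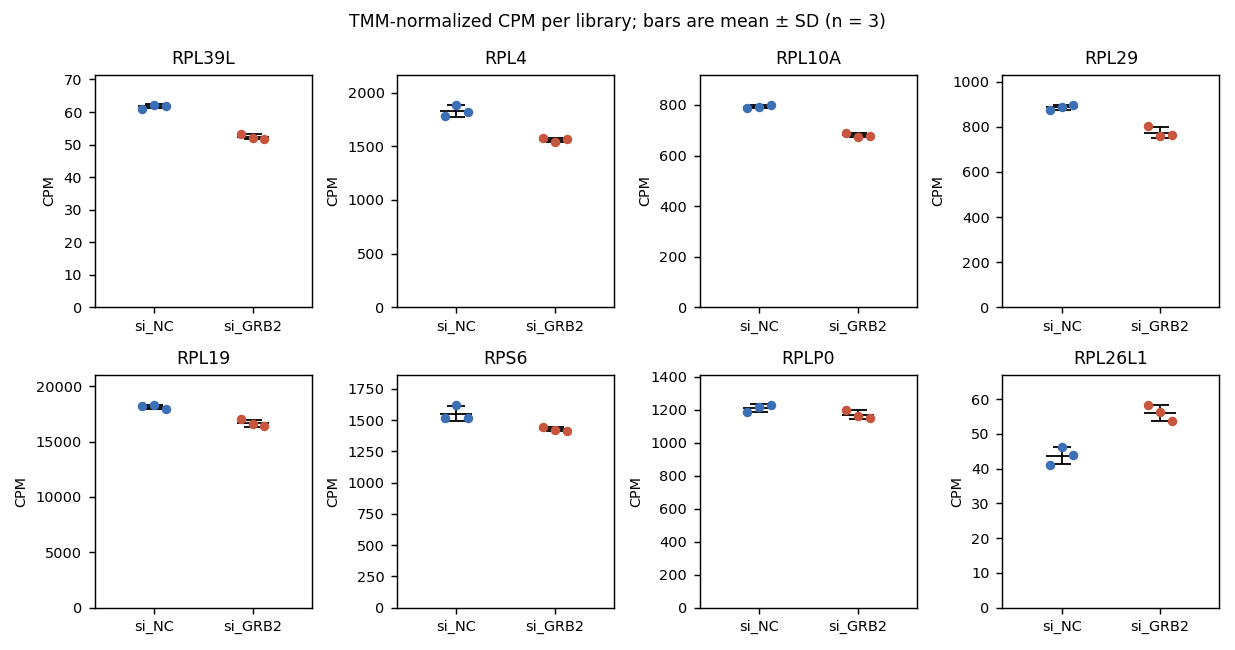
TMM-normalized CPM (vertical axes start at 0) in each library for 8 members, with mean ± SD of 3 libraries. RPL39L, RPL4, RPL10A, RPL29, RPL19 and RPS6 are lower in every si_GRB2 library, RPLP0 overlaps between groups, and RPL26L1 is higher in every si_GRB2 library.

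In the small subunit, 24 of 32 members were called lower and 0 higher, with a median log2 fold change of −0.091. RPS3, which sits at the entry of the mRNA channel, had 1999, 2049.8 and 2032 CPM in si_NC and 1888, 1781 and 1838 CPM in si_GRB2 (log2 fold change −0.14, adjusted p = 2.00e-04). RPS6, the substrate of the S6 kinases downstream of mTORC1, had 1517, 1619 and 1519.8 CPM in si_NC and 1446, 1423 and 1413 CPM in si_GRB2 (log2 fold change −0.12, adjusted p = 0.00181). Neither gene overlapped between the groups. RPS27, a zinc finger protein, fell by 8.11% and RPS18 fell by 6.54%. RPSA, also known as a laminin receptor, had 3474, 3503 and 3447 CPM in si_NC and 3275, 3159 and 3157 CPM in si_GRB2 (log2 fold change −0.12, adjusted p = 2.61e-04). RPS12 had the smallest called change, −0.065 (adjusted p = 0.0423, edgeR). Its call was lost without si_NC replicate 1 (adjusted p = 0.113), si_NC replicate 3 (0.0633), si_GRB2 replicate 2 (0.175) or si_GRB2 replicate 3 (0.105).

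The stalk proteins RPLP0, RPLP1 and RPLP2 recruit the elongation factors to the ribosome. RPLP0, often used as a reference gene in PCR, had 1184, 1216 and 1226 CPM in si_NC and 1198, 1160.3 and 1151 CPM in si_GRB2. The groups overlapped and the log2 fold change of −0.047 (standard error 0.024) was not called (adjusted p = 0.152, edgeR). RPLP2 was called lower (log2 fold change −0.11, adjusted p = 0.00335, edgeR). RPLP1 was called lower as well (−0.12, adjusted p = 0.0102, edgeR), but 1 si_GRB2 library lay within the si_NC range. The call of RPLP1 was lost without si_GRB2 replicate 2 (adjusted p = 0.0712) or replicate 3 (0.0641), and in DESeq2 (0.0678).

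RPL5 and RPL11 form the 5S particle that can bind MDM2. RPL11 had 874, 887 and 877 CPM in si_NC and 834, 819 and 829.9 CPM in si_GRB2, and was called lower (log2 fold change −0.088, adjusted p = 0.00586, edgeR). RPL5 had 1159, 1214 and 1148 CPM in si_NC and 1125, 1107 and 1140.3 CPM in si_GRB2. Its groups did not overlap, but the log2 fold change of −0.062 missed the threshold (adjusted p = 0.0729, edgeR), and it passed without si_NC replicate 3 (0.0377), in DESeq2 (0.0412) and in a robust fit (0.0487). Of 6 genes listed with this checkpoint, 2 were higher and 3 lower. CDKN1A, an inhibitor of cyclin-dependent kinases, was the only one past the 1.5-fold limit, with 18.5, 16.4 and 16.4 CPM in si_NC and 9.97, 10.5 and 10.6 CPM in si_GRB2 (log2 fold change −0.72, adjusted p = 1.88e-06). MDM2 was higher (0.21, adjusted p = 7.70e-04, edgeR), as was GTF3A, the transcription factor of the 5S genes (0.24, adjusted p = 8.07e-05, edgeR). CDKN2A (−0.37) was lower as well.

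On chromosome X, all 4 members were called lower, beside 72.3% of all 83 members and 15.5% of all genes tested. RPL36A fell by 11.2% and RPL10, which joins the large subunit late in assembly, fell by 10.4%. RPS4X fell by 8.41% and RPL39, a protein of the exit tunnel, fell by 7.19%. RPL39 lost its call without si_GRB2 replicate 2 (adjusted p = 0.0784, edgeR). Opposite-strand rows that share exonic bases had 10.1% as many reads as RPL36A (GLA) and 2.42% as many as RPL10 (DNASE1L1), and whether the counting used strand is not given in the sources used here.

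RPL19 and RPL23 lie on the long arm of chromosome 17 near ERBB2. RPL19 had 18244, 18298 and 17918 CPM in si_NC and 17046, 16556 and 16414 CPM in si_GRB2, with no overlap. It was called lower (log2 fold change −0.12 ± 0.017 SE, adjusted p = 4.94e-05, edgeR), while ERBB2 was called higher (0.24, adjusted p = 1.14e-06, edgeR). RPL23 had 669, 695 and 698 CPM in si_NC and 664, 638 and 644 CPM in si_GRB2 (log2 fold change −0.083, adjusted p = 0.0216). The call of RPL23 was lost without si_NC replicate 2 (adjusted p = 0.0690), si_NC replicate 3 (0.0645), si_GRB2 replicate 2 (0.102) or si_GRB2 replicate 3 (0.0694).

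Of the 6 paralogs, 1 was called higher, 1 was called lower and 4 were not called, so that 33.3% were called, near the 30.6% among all genes tested. RPL26L1 (ENSG00000037241.7, chr5:172958729-172969771), a close copy of RPL26, had 41.1, 46.1 and 43.9 CPM in si_NC and 58.3, 56.3 and 53.6 CPM in si_GRB2. Every si_GRB2 library was above every si_NC library, a rise of 28.3% (log2 fold change 0.36 ± 0.048 (SE), adjusted p = 2.92e-05 in edgeR). It was called higher in every alternative and without each library. RPL39L, a copy of RPL39 expressed in testis and some cancers, had 61.1, 62.2 and 61.9 CPM in si_NC and 53.2, 52.1 and 51.8 CPM in si_GRB2 (log2 fold change −0.24, adjusted p = 1.50e-04). RPL7L1 (log2 fold change 0.023), RPL22L1 (−0.047), RPS27L (−0.051) and RPL3L (−0.36, standard error 0.35) were not called.

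Ratios of each paralog to its parent were compared over the libraries, 7 ratios in all. The log2 ratio of RPL26L1 to RPL26 was −0.67, −0.64 and −0.72 in si_NC and −0.24, −0.15 and −0.29 in si_GRB2. The difference of 0.45 had p = 0.1 (exact permutation test, two-sided; adjusted p = 0.175 over the 7), the smallest p that 3 against 3 libraries allow. The RPL26 row held only 9.14% of the reads in itself and its same-strand overlapping row together. These ratios are therefore to that row and not to all reads at the RPL26 locus. Against RPL26 with its overlapping row, the log2 ratio was −4.20, −4.06 and −4.13 in si_NC and −3.64, −3.65 and −3.74 in si_GRB2. The difference there was also 0.45. The ratio of RPL7L1 to RPL7 was higher by 0.15 and that of RPL39L to RPL39 differed by −0.13, both without overlap (p = 0.1 each, exact permutation test). RPL22L1 and RPL22 kept a log2 ratio of −2.71 ± 0.036 in si_NC and −2.70 ± 0.022 in si_GRB2 (SD, n = 3; exact permutation p = 0.8). Per length of the canonical transcripts, RPL22L1 stood at 16.5% of the RPL22 row in si_NC, and RPS27L at 0.102% of RPS27. The RPL22 row held only 44.9% of the reads in itself and its same-strand overlapping row together, which were not added here. The 16.5% is therefore a share of that row and not of all reads at the RPL22 locus.

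For 5 members, a same-strand row of a read-through or overlapping gene held more reads than the member, and the 4 given here were chosen after their values were seen. Over the 6 libraries RPL17 had 1733 reads beside 102857 in RPL17-C18orf32, RPS10 held 0.498% of the reads of both beside 110964 in RPS10-NUDT3, and RPL26 had 10806 beside 107453 in RP11-849F2.7. RPL22 had 62152 beside 76400 in RP1-120G22.12. None of the 5 members was called, though RPL26 was called lower without si_NC replicate 1 (adjusted p = 0.0281, edgeR). Their levels are those of their rows and not of all reads at the locus. Of these overlapping rows, those beside RPL17 (log2 fold change −0.071) and RPL26 (−0.093) were called lower. Without the 5 members, 60 of 78 were lower and 1 higher. The 457 pseudogene rows named after members held reads that came to 0.877% to 0.940% of the members' reads. Adding these reads to the members gave 61 lower and 1 higher.

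Core members were called lower both with and without a tract at the start. Of 51 core members with a tract, 41 were called lower, with a median log2 fold change of −0.108. Of 11 without one, 7 were called lower, with a median of −0.089, RPL3 and RPS4X among them. In the RefSeq windows of 250 bases before to 50 after the start, CCGGAAG on either strand was found in 36.4% of the 66 members and 21.8% of tested genes. GGGCGG was found in 57.6% and 75.9%, CACGTG in 7.58% and 12.6%, AANATGGC in 16.7% and 12.4%, and TATAAA in 9.09% and 8.55%. Overlaps between motifs were not removed, and these matches describe the letters only.

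Other genes of the translation system are given by lists, beside the 30.6% of all genes tested that were called, 15.5% lower and 15.2% higher. Of the ribosomal proteins outside the name rule, 3 of 4 were called lower, with a median of −0.115. RPL36AL had a log2 fold change of −0.19 and RACK1, which sits on the head of the small subunit, one of −0.080, while FAU (−0.078) was not called. Of 78 mitochondrial ribosomal proteins, which build the separate ribosome of mitochondria, 25 were lower (32.1%) and 2 higher, 34.6% called in all, with a median of −0.043. MRPL44 had the largest fall among them, with 53.8, 54.3 and 49 CPM in si_NC and 39.4, 39.3 and 38.5 CPM in si_GRB2 (log2 fold change −0.42, adjusted p = 3.83e-06), followed by MRPL30 (−0.27). MRPL47 (0.14) and MRPL15 (0.12) were higher.

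Of 70 ribosome biogenesis factors, 16 were lower (22.9%) and 8 higher, with a median of −0.037. The 34.3% called was near the share among all genes tested. BYSL (−0.33), a small-subunit assembly factor, and DDX21 (−0.26), a nucleolar helicase, fell most. SBDS, which helps to release EIF6 from the new large subunit, rose most, with 208, 214 and 198 CPM in si_NC and 254, 266 and 265 CPM in si_GRB2 (log2 fold change 0.34, adjusted p = 7.60e-07), followed by LTV1 (0.19). Of 6 dedicated chaperones of ribosomal proteins, HEATR3, which takes part in the import of RPL5, was higher (0.19) and the others were not called.

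Of 18 tested non-ribosomal TOP mRNAs, which carry the same tract, 4 were lower and 3 higher (38.9% called), with a median of −0.022. NPM1 (−0.19) and EEF1B2 (−0.15) fell most among those called, while EIF3F (0.30) and PABPC1 (0.092) rose most. Of 15 regulators of mTORC1 and TOP mRNAs, 5 were lower and 3 higher (53.3% called), with a median of 0.034. EIF4EBP1, which encodes the translation repressor 4E-BP1, had 83.9, 83.2 and 88.2 CPM in si_NC and 66.4, 65.4 and 64.5 CPM in si_GRB2 (log2 fold change −0.38, adjusted p = 1.09e-06). DEPTOR (−0.31), an inhibitor of mTOR, was lower too, and AKT1S1 (0.19) and TSC2 (0.12) were higher.

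**Figure D5:**
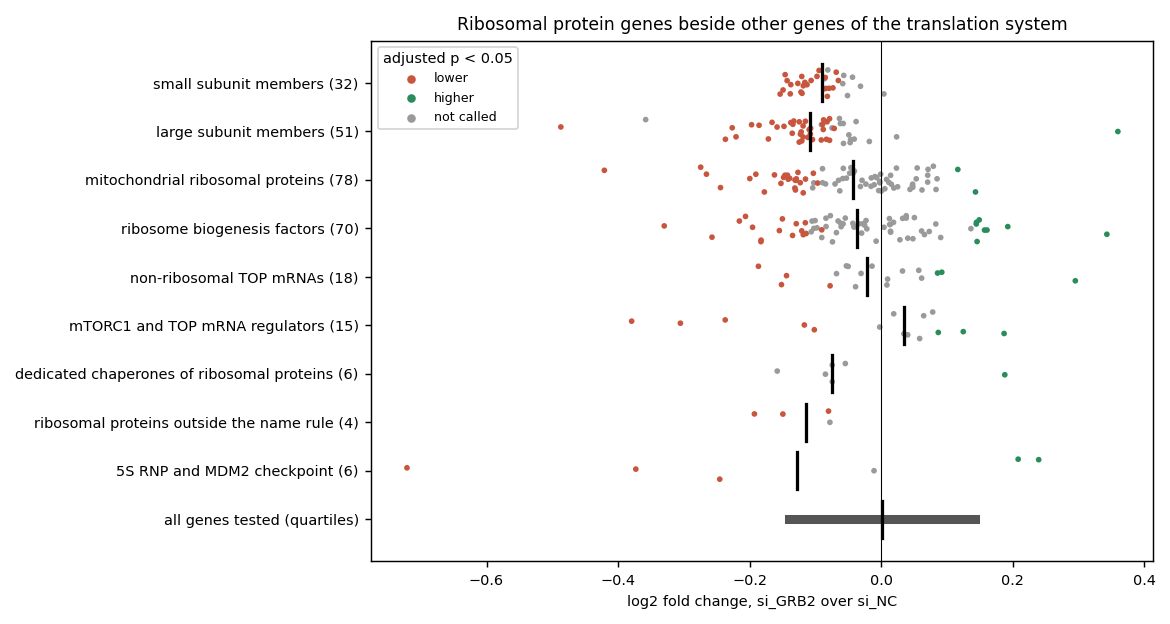
Log2 fold change of si_GRB2 over si_NC for each tested gene of the 2 member groups and 7 lists (points, spread vertically at random), with the median of each as a black line. The bottom row gives the quartiles of all genes tested, −0.140 and 0.143, and most of the members' points sit in a narrow band around −0.10, while 6 of the lists reach to both sides of 0 and the 4 ribosomal proteins outside the name rule all lie below it.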

How the data were processed

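Poly(A) RNA of 6 SK-BR-3 libraries was sequenced with strand-specific kits. The authors trimmed reads with FASTX-Toolkit 0.0.13, aligned them to GRCh38 with HISAT2 and deposited the count of uniquely mapped reads per gene, without normalization. The authors also deposited FPKM per gene, for 29912 genes. The counting tool, the annotation release and the FPKM total are not given in the sources used here. Reads that map to more than 1 place, as from near-identical pseudogenes, were dropped by the authors, which can lower a member's level.

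Counts were scaled by TMM and filtered with filterByExpr in edgeR 4.0.16 (R 4.3.3), which left 15801 genes. The 3 si_GRB2 and 3 si_NC libraries were compared by its quasi-likelihood test without covariates, and p-values were adjusted over all 15801 genes by the Benjamini-Hochberg method. Depth was 24810378 to 28532480 counted reads per library, and intervals or standard errors cover the spread between these libraries. The test was checked on simulated data. Lengths and overlaps came from GENCODE 44, where 80 of the 83 members had the same identifier version, and promoters from RefSeq. Every column of the tables was used or mapped to a sample.

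Named were GRB2, the 8 largest called rises and falls among members, the 5 highest by FPKM, a fixed set of members, and from each other list the genes past the fold limit or otherwise the 2 largest called rises and falls. The members and lists were chosen with earlier results of these data known. Alternatives used DESeq2 1.42.0, limma 3.58.1, other scalings and filters, length offsets, a replicate block and each library left out. The fRIP-seq and splicing data were not analysed here, and the values of some single genes that the rule names are not reported here.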

Additional observations from a re-analysis of the deposited data

How the results depend on the processing

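Over 690 refits of single values for 33 named members, 592 kept their direction and side of the threshold, 92 lost and 4 gained the call, and 2 reversed. The reversed values were uncalled ones under offsets by gene length, RPL22L1 at 0.00018 and RPL7L1 at −0.0016. The count of 60 lower members was 62 in DESeq2 (58 shared), 60 with DESeq2 size factors, upper-quartile factors or TMM without the members, 64 with no filter on low counts, 63 in a robust fit, 48 with length offsets and 43 at an adjusted p under 0.01. It was 2 with limma on log2(FPKM + 1), 2 on log2(FPKM + 0.1) and 7 with a mean FPKM of at least 1, where the median log2 fold change was −0.054, −0.061 and −0.057. Of alternatives chosen after seeing the data, limma on log2 CPM gave 59 and centred log2(FPKM + 1) gave 26. In the FPKM fits, in the order given, 4.68%, 5.13%, 24.7% and 9.45% of all genes were called, beside 30.6% in edgeR with TMM. Why fewer were called with FPKM was not tested. No member passed the 1.5-fold limit in edgeR (67 members were lower at an unadjusted p under 0.05).

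Leaving out 1 library in turn gave 42 to 65 lower members, 1 higher member and medians of −0.123 to −0.083, with 42 members lower in all 6 fits. The lowest count came without si_GRB2 replicate 2. The log2 fold change of GRB2 lay between −2.18 and −1.91 over 21 refits. Same-numbered libraries deviated with correlations of 0.23, −0.095 and 0.080, so the numbers were not taken as pairs. The replicate block gave 52 lower and 1 higher members and a median of −0.104. Each refit without 1 library assumes that the smaller group varies like the other. Reads limit RPL3L most, with 68 in all.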
